A study of Danio rerio with 14 samples.

Results

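The genes described here are 7 early response genes of the zebrafish, *atf3*, *fosl1a*, *jun*, *junba*, *junbb*, *fosab* and *egr1*, out of 19859 genes measured. They were chosen by name as genes of known early response roles, with earlier results of these data known, so the choice was not independent of the data. Bulk RNAseq was performed on dissected retinas with the RPE attached, 7 from chmru848 zebrafish and 7 from wt zebrafish of the AB strain, at 5 days post fertilization (dpf). chmru848 zebrafish carry a mutation of *chm*, which encodes Rab escort protein 1 and is the gene mutated in the inherited blindness choroideremia. *chm* is used in every tissue, and mutants degenerate throughout the body and die at about this age, so that disease outside the eye accompanied the state of these retinas. Each retina sample came from a separate zebrafish by the study's methods, so that p-values measure the spread between zebrafish of a genotype.

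AP-1 is a transcription factor made of pairs of leucine zipper proteins of the Jun and Fos families, which bind a shared DNA element, and ATF proteins can pair with Jun proteins too. Many genes of this group are transcribed within minutes of a stimulus, without new protein synthesis, and their RNA is normally short lived. In mammals, *ATF3*, *JUN*, *JUNB* and *FOSL1* are induced by injury, cytokines and unfolded proteins, whereas *FOS* and *EGR1* are also the classic reporters of recent neuronal firing and, in the retina, of light. In what follows, *atf3*, *fosl1a*, *jun*, *junba* and *junbb* are called stress-linked and *fosab* and *egr1* activity-linked, as a division by known role only. Any contrast between the classes depends on this assignment.

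The deposited values are variance-stabilized log2 values. They were also turned back into normalized counts, which are read counts scaled for depth and not for gene length, so that levels are compared between retinas and not between genes. Reads on genes, estimated from the spacing of low values, came to 14.2 to 29.3 M reads in chmru848 retinas and 18.0 to 26.3 M reads in wt retinas. chmru848 retinas 1, 2 and 4 stood apart in that 1469 to 1983 genes were at the lowest value of the table, against 369 to 760 in the other chmru848 retinas and 317 to 628 in wt retinas. *chm* itself (ENSDARG00000003845) had 216 to 492 normalized counts in chmru848 retinas and 264 to 432 in wt retinas and was not called different (adjusted p = 0.358 in limma), so its RNA level did not separate the genotypes. Of 6 photoreceptor genes 5 were called lower in chmru848 retinas, against 23.7% of all genes tested. *pde6c*, with a difference of 0.22 on the log2 scale, was not called. The summed level of the 6 was 72928 to 447572 normalized counts in chmru848 and 232813 to 1930870 in wt retinas. In bulk RNA, fewer cells of a type and less RNA per cell cannot be told apart.

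All 7 early response genes passed the filter on low values. Of the 7, 6 were higher in chmru848 retinas than in wt retinas and none was lower, by limma, with p adjusted over all genes and a threshold of 0.05. Among the 19751 genes tested, 19.9% were called higher and 23.7% lower, or 43.7% in either direction. For the same 6 genes every chmru848 retina was above every wt retina, which held for 7.57% of all genes tested. A further 7.98% had every chmru848 retina below every wt retina, so that 15.6% had no overlap in either direction. The median difference over the 7 genes was 4.38 on the deposited log2 scale, against -0.06 over all genes tested. The 5 stress-linked genes were all called higher. *egr1* was the gene that was not called.

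**Figure D1:**
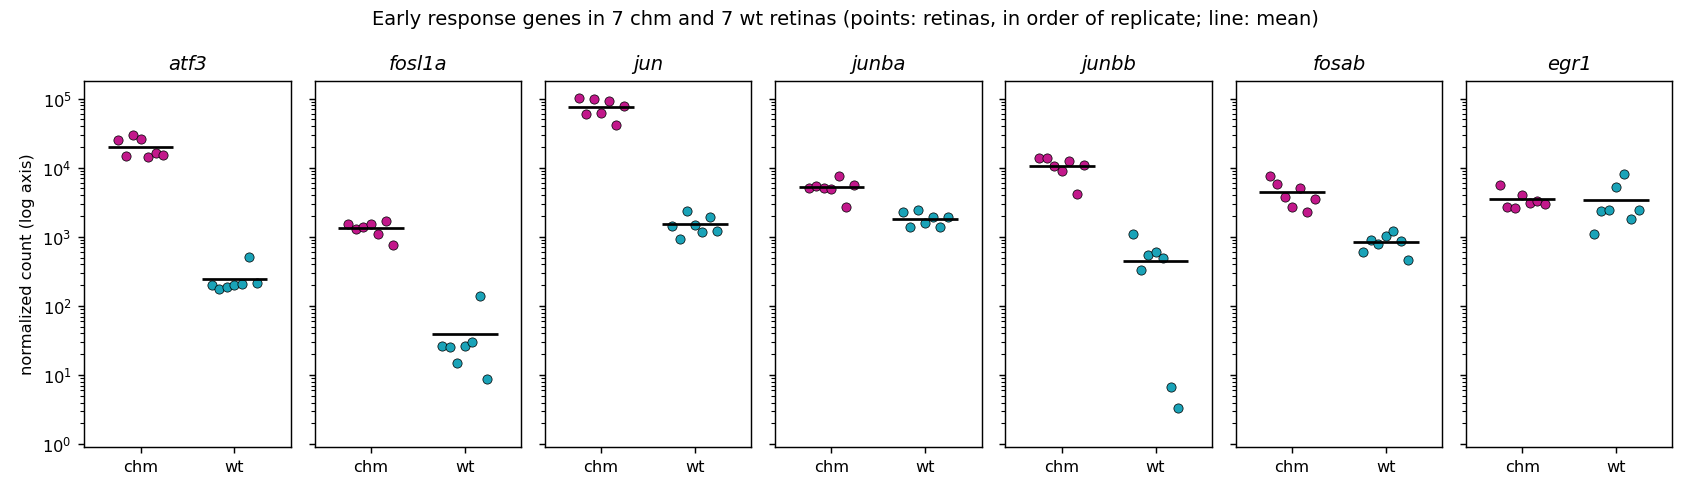
Normalized counts of the 7 genes in each retina on a log10 axis, with chmru848 (chm) left of wt for each gene, retinas in order of replicate and a bar at the mean. The points of the 2 genotypes are apart for 6 genes and mixed for *egr1*, and 2 wt retinas lie far below the other wt retinas for *junbb*.

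*atf3* (ENSDARG00000007823) encodes a leucine zipper factor that in mammals is switched on by a wide range of cell stresses, in part through ATF4, and can act as a repressor. It had 14125 normalized counts in the lowest chmru848 retina, a median of 16485 and 29750 in the highest, against 177, 203 and 514 in wt retinas. The lowest chmru848 retina was thus 27.5-fold above the highest wt retina. The chmru848 mean of 20190 ± 6506 was 82.9-fold above the wt mean of 243 ± 120 (SD, n = 7 each). On the deposited log2 scale the difference was 6.18 (SE 0.23, adjusted p = 1.01e-11 in limma), at rank 6 of all genes tested. When genes were instead ordered by fold of means, each mean first raised by 1 normalized count, it was at rank 37. The added 1 lowers the fold of the weakest genes. One wt retina, replicate 6, was high with 514 normalized counts, and the others lay between 177 and 215. Without it the rise was 102-fold.

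*jun* (ENSDARG00000043531) encodes the Jun protein that is phosphorylated by the kinase JNK and is known to activate its own gene in mammals. In chmru848 retinas it ranged from 41442 to 102936 normalized counts with a median of 78829, and in wt retinas from 921 to 2389 with a median of 1440. No wt retina came within 17.3-fold of the lowest chmru848 retina. The means were 76256 ± 23076 in chmru848 and 1507 ± 508 in wt retinas (SD, n = 7 each), a 50.6-fold rise. The difference on the deposited scale was 5.62 (SE 0.25, adjusted p = 2.18e-11 in limma), at rank 13 of all genes tested. In the order by fold of means, each mean again raised by 1 normalized count, *jun* was at rank 58.

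*fosl1a* (ENSDARG00000015355) encodes a Fos-family partner of Jun proteins, known in mammals as FRA-1, which appears later and lasts longer than FOS after a stimulus. It had 749 normalized counts in the lowest chmru848 retina, a median of 1407 and 1699 in the highest, against 8.79, 25.9 and 138 in wt retinas, where it was weakly expressed. The highest wt retina was again replicate 6, and the other 6 wt retinas held 8.79 to 30.3 normalized counts. The groups stayed 5.41-fold apart at their closest. The means of 1332 ± 324 in chmru848 and 38.6 ± 44.7 in wt retinas (SD, n = 7 each) gave a 34.5-fold rise, which was 60.7-fold without wt replicate 6. The difference on the deposited scale, which compresses low values, was 4.38 (SE 0.28, adjusted p = 2.12e-09 in limma), and 4.63 (adjusted p = 6.74e-11) without wt replicate 6. *jund*, another Jun family gene, and *il1b*, the gene of the cytokine interleukin 1 beta, were also high in this retina. It had 1267 normalized counts of *jund* and 325 of *il1b*, and the other wt retinas had 324 to 549 of *jund* and 6.17 to 20.1 of *il1b*. The part of this retina's state in the values of *atf3* and *fosl1a* was not tested beyond leaving it out.

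Zebrafish have a pair of *JUNB* genes, *junba* (ENSDARG00000074378) and *junbb* (ENSDARG00000104773). JUNB binds the AP-1 element as other Jun proteins do but is known as the weaker activator and can counter JUN. Reads that align to both copies were divided between them by RSEM, so the level of each is less certain than that of the pair together. *junba* had 2669 normalized counts in the lowest chmru848 retina, a median of 5145 and 7461 in the highest, against 1380, 1904 and 2420 in wt retinas. These groups were separate by a small margin, 1.10-fold. The 2.84-fold rise, with means of 5199 ± 1412 in chmru848 and 1833 ± 409 in wt retinas (SD, n = 7 each), was the smallest among the 6 genes called, and its difference on the deposited scale was 1.46 (SE 0.21, adjusted p = 2.41e-05 in limma).

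*junbb* differed far more. Its normalized counts were 4109 in the lowest chmru848 retina, 11063 at the median and 14019 in the highest, against 3.29, 499.98 and 1110 in wt retinas. The wt retinas were uneven, as replicates 6 and 7 had 6.65 and 3.29 normalized counts, or an estimated 7.99 and 3.98 reads, and the other 5 had 332 to 1110. The means were 10741 ± 3435 in chmru848 and 442 ± 383 in wt retinas (SD, n = 7 each), a 24.3-fold rise and a difference of 5.25 on the deposited scale (SE 0.69, adjusted p = 9.40e-06 in limma). Without wt replicates 6 and 7, a choice made after seeing the data, the difference was 4.05 (SE 0.31, adjusted p = 5.92e-08) and the rise 17.4-fold. Its chmru848 retinas were lowest in replicate 6, which was also the lowest for *junba*.

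Within each retina, *junbb* minus *junba* averaged 1.0 ± 0.30 in chmru848 retinas and -2.79 ± 2.01 in wt retinas on the deposited log2 scale (SD, n = 7 each). The balance of the copies therefore differed by 3.79, with no overlap between the genotypes (exact two-sided permutation test, adjusted p = 0.000801 over 11 pairs of genes). Without wt replicates 6 and 7, which were the lowest for *junbb*, the wt mean was -1.64 ± 0.46 (SD, n = 5) and the difference 2.64, still with no overlap (exact two-sided permutation test, adjusted p = 0.00174). What set these wt retinas apart was not tested. The sum of both copies, which does not depend on how shared reads were divided between them, was 15939 ± 4600 normalized counts in chmru848 and 2275 ± 696 in wt retinas (SD, n = 7 each). It was 7.01-fold higher in chmru848, at 6778 to 19911 against 1394 to 3360 normalized counts in wt retinas (exact two-sided permutation p = 0.000583, the smallest that 7 against 7 retinas allow).

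**Figure D2:**
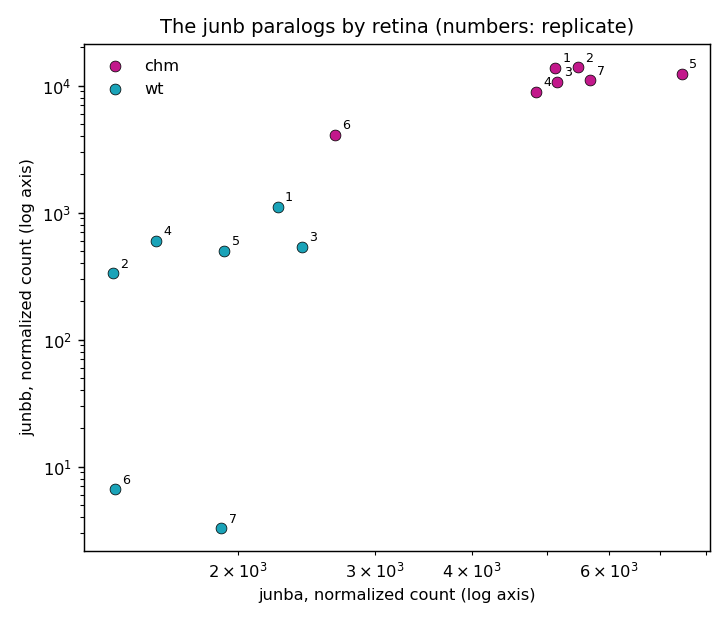
Normalized counts of *junba* and of *junbb* in each retina, on log10 axes, with chmru848 (chm) and wt points marked. In all 7 chmru848 retinas *junbb* lies between 4109 and 14019 normalized counts, while the wt points spread from 3.29 to 1110 along the *junbb* axis at similar *junba* levels of 1380 to 2420.

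The activity-linked genes behaved less alike. *fosab* (ENSDARG00000031683) is an orthologue of *FOS*, whose protein pairs with Jun proteins and which firing, light, growth factors and stress can all switch on. It had 2295 normalized counts in the lowest chmru848 retina, a median of 3722 and 7646 in the highest, against 464, 871 and 1199 in wt retinas. Every chmru848 retina was at least 1.91-fold above every wt retina. The means were 4400 ± 1885 in chmru848 and 837 ± 249 in wt retinas (SD, n = 7 each), a 5.26-fold rise and a difference of 2.28 on the deposited scale (SE 0.26, adjusted p = 2.28e-06 in limma).

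*egr1* (ENSDARG00000037421) encodes a zinc finger factor outside the AP-1 family, induced through serum response factor and by activity in neurons. Its chmru848 retinas ranged from 2602 to 5610 normalized counts with a median of 3098, inside the wt range of 1109 to 8213 with a median of 2432. All 7 chmru848 retinas were above the wt median and none was above the highest wt retina. The means of 3482 ± 1045 in chmru848 and 3362 ± 2487 in wt retinas (SD, n = 7 each) differed 1.04-fold. On the deposited scale the difference was 0.29 (SE 0.34, 95% interval -0.42 to 0.99, adjusted p = 0.512 in limma; exact two-sided permutation p = 0.477). The interval leaves room for a rise of close to 1 log2 unit but not for one of the size seen in *fosab*. The coefficient of variation was 30.0% in chmru848 and 74.0% in wt retinas, a contrast that was not tested.

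For each of the 6 genes called, the exact two-sided permutation p was 0.000583, the smallest that 7 against 7 retinas allow. With chmru848 retinas 1, 2 and 4 left out, the same 6 genes were called, with differences of 6.08 for *atf3*, 5.64 for *jun*, 5.06 for *junbb*, 4.26 for *fosl1a*, 2.08 for *fosab* and 1.43 for *junba*, and *egr1* at 0.12 was not.

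**Figure D3:**
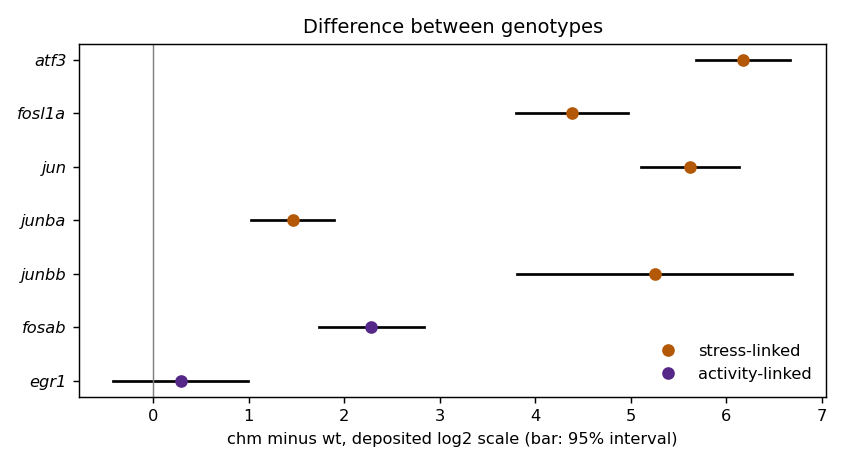
Difference between chmru848 (chm) and wt retinas on the deposited log2 scale for each gene, as the mean of 7 chmru848 minus the mean of 7 wt retinas, with the 95% interval from limma as a bar, a line at 0 and colours for stress-linked and activity-linked genes. *atf3* is farthest to the right at 6.18, and the *egr1* interval of -0.42 to 0.99 spans 0.

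Whether the stress-linked genes differed in response from the activity-linked genes was tested within retinas, which removes any shift common to both genes. For each retina the value of an activity-linked gene was subtracted from that of a stress-linked gene, in 10 pairs. The genotypes differed in all 10, and in 9 the stress-linked gene had the larger rise (exact two-sided permutation tests, adjusted over the 11 pairs of genes). These pairs reuse the same 2 activity-linked genes, each set against the same 5 stress-linked genes, so they are not separate results. The tests compare single genes and not the classes as such. *atf3* minus *egr1* was 2.51 ± 0.47 in chmru848 and -3.39 ± 1.16 in wt retinas (SD, n = 7 each), a difference of 5.89. *jun* minus *egr1* differed by 5.34, *junbb* minus *egr1* by 4.96 and *fosl1a* minus *egr1* by 4.09, all with no overlap between genotypes and an adjusted exact permutation p = 0.000801.

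Against *fosab*, which itself rose, the gaps were smaller. They were 3.89 for *atf3*, 3.34 for *jun* and 2.10 for *fosl1a*, each with no overlap (adjusted exact permutation p = 0.000801), and 2.97 for *junbb*, where the genotypes overlapped (adjusted exact permutation p = 0.00142). Without wt replicates 6 and 7 the gap of *junbb* was 1.89 (adjusted exact permutation p = 0.00309). *junba* was the exception among the stress-linked genes. It rose less than *fosab*, by -0.82 (adjusted exact permutation p = 0.0231), and more than *egr1*, by 1.17 (adjusted exact permutation p = 0.0256), and the genotypes overlapped in both. Leaving out chmru848 replicate 1 brought the first of these to -0.68 (adjusted exact permutation p = 0.0513), and leaving out chmru848 replicate 5 brought the other to 1.06 (adjusted exact permutation p = 0.0507). By the difference of means the order was *atf3*, *jun*, *junbb*, *fosl1a*, *fosab*, *junba*, *egr1*, in which the first 4 genes were not tested against each other. The order of *junbb* and *fosl1a* turned without wt replicates 6 and 7, where *fosl1a* differed by 4.53 and *junbb* by 4.05, and by the fold of mean normalized counts, at 34.5 for *fosl1a* and 24.3 for *junbb*. That of *jun* and *junbb* turned on the log2 of normalized counts raised by 1, where *junbb* differed by 6.04 and *jun* by 5.66.

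**Figure D4:**
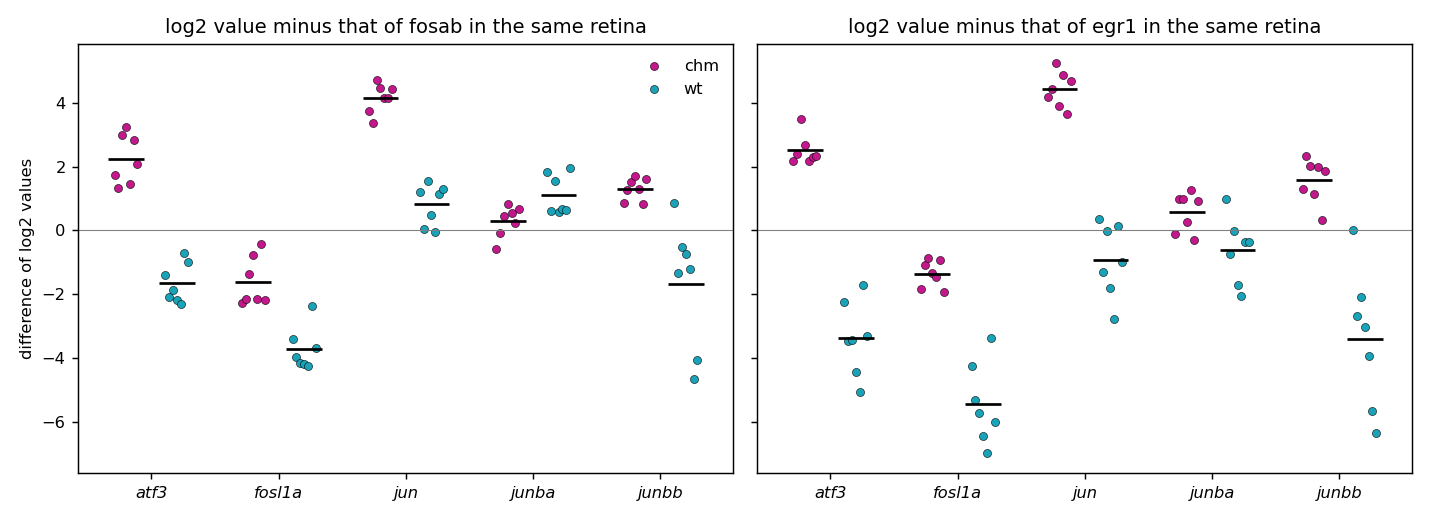
Value of each stress-linked gene minus that of *fosab* or *egr1* within the same retina, on the deposited log2 scale, with chmru848 (chm) left of wt and a bar at the mean. chmru848 retinas lie above wt retinas without overlap in 7 of the 10 pairs, and *junba* minus *fosab* lies lower in chmru848, at 0.30 against 1.12 in wt.

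Within a genotype the genes were not shown to move together from retina to retina. Of 21 pairs of genes in chmru848 retinas and 21 in wt retinas, none had a correlation with an adjusted p below 0.05 in the exact permutation test. For Pearson's r, 3 in chmru848 and 0 in wt retinas had an unadjusted p below 0.05. The median Pearson's r was 0.31 in chmru848 and -0.02 in wt retinas. The lowest p of Pearson's r in chmru848 retinas belonged to *junbb* and *fosab*, with r = 0.83 (n = 7, exact permutation p = 0.00437, adjusted p = 0.183). Their Spearman's rho was 0.93 (exact permutation p = 0.00675, adjusted p = 0.142), and r was 0.97 without the 2 retinas farthest from the median of *junbb*. *fosl1a* and *junba* ran in opposite order in chmru848 retinas, with rho = -0.96 (n = 7, exact permutation p = 0.00278, adjusted p = 0.117) and r = -0.59 (exact permutation p = 0.185, adjusted p = 0.707), and with r = -0.77 without the 2 farthest retinas. In wt retinas *atf3* and *fosl1a* had r = 0.90 (n = 7, exact permutation p = 0.0915, adjusted p = 0.593) and rho = 0.43 (exact permutation p = 0.354, adjusted p = 0.923), and r fell to -0.11 without the 2 farthest retinas, so the relation rests on those retinas.

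The genes whose pattern was most like that of each gene were sought by Pearson's r over all 14 retinas after the mean of each genotype was subtracted, among 18877 other genes with a symbol. Values are the highest of so many and are given as a description. *jund* was the gene most like *fosl1a*, with r = 0.93, and within wt retinas the likeness had r = 0.98, where wt replicate 6 was high for both genes. *plk2*, a polo-like kinase gene, was most like *fosab* (r = 0.87), and *ptp4a2b* most like *atf3* (r = 0.88). *smim13* was most like *jun* (r = 0.93), *btbd9* most like *junba* (r = 0.89) and *ccdc85c* most like *egr1* (r = 0.81). For *junbb* the 2 most alike were si:ch211-179l5.6 and *rnf13*, both with r = 0.94. Within chmru848 retinas their r was 0.24 and 0.54, against 0.98 and 0.97 within wt retinas. *rnf13*, a ubiquitin ligase gene, had 806 to 1279 normalized counts in chmru848 retinas, against 244 and 335 in wt replicates 6 and 7 and 2169 to 2804 in the other wt retinas. It was thus low in the same wt retinas as *junbb*.

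Other genes of the AP-1 and ATF families followed the same direction for the most part. Of 13 tested, 10 were higher in chmru848 retinas, 1 was lower and 2 were not called. Of all genes tested, 19.9% were called higher and 23.7% lower. The median difference of the 13 was 1.27 on the deposited scale, against -0.06 over all genes tested. *atf5a* and *atf5b*, genes of an ATF4-like factor induced when protein folding or mitochondria fail, were higher by 4.09 and 3.40. *batf2*, which encodes a partner of Jun proteins, was higher by 3.08, with 63.4 to 404 normalized counts in chmru848 and 0 to 11.3 in wt retinas. *fosl2*, the second Fos-related antigen gene, was higher by 2.27, and had 1644 to 3549 normalized counts in chmru848 and 366 to 688 in wt retinas. *fosb*, another Fos gene, was higher by 1.10 with overlapping groups. *june*, a further Jun gene of zebrafish, was the gene called lower, by -0.78 (adjusted p = 0.0215 in limma), with 11.3 to 108 normalized counts in chmru848 and 64.8 to 177 in wt retinas. *batf3* at 0.47 and *atf2* at -0.51 were not called.

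Other early genes linked to neuronal activity went in both directions. Of 9 tested, 1 was higher, 3 were lower and 5 were not called, and their median difference was -0.31. With 19.9% of all genes called higher and 23.7% lower, these counts do not set the list apart. *fosb*, higher by 1.10, was counted with the AP-1 and ATF genes, so the counts of both lists depend on how genes were assigned. *egr4*, a relative of *egr1*, was the gene called higher, by 1.16, with 851 to 1885 normalized counts in chmru848 and 341 to 706 in wt retinas. *bdnf*, which encodes the activity-regulated growth factor BDNF, was lower by -1.44, with 258 to 1062 normalized counts in chmru848 and 782 to 1731 in wt retinas. Both genes that carry the symbol *nr4a2*, for a nuclear receptor induced by firing, were lower, ENSDARG00000044532 by -1.15 with no overlap and ENSDARG00000017007 by -0.82. *npas4*, a factor induced by calcium entry in neurons, had a difference of -0.94 that was not called (adjusted p = 0.0962 in limma). The others not called were *nr4a3* at 0.64 (adjusted p = 0.0572 in limma), *egr3* at 0.46, *egr2a* at -0.30 and *nr4a1* at -0.31. Of 6 marker genes of retinal neurons, 5 were lower in chmru848 retinas, against 23.7% of all genes tested. *elavl4*, with a difference of 0.18, was not called. The summed level of the 6 was 17974 to 32571 normalized counts in chmru848 and 40634 to 65585 in wt retinas. The part of these lower marker levels in the values of the activity-linked genes was not tested.

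General early response genes went in both directions, with more called higher than lower. Of 17 tested, 7 were higher, 2 lower and 8 not called, against 19.9% of all genes called higher and 23.7% lower. Their median difference was 0.55, against -0.06 over all genes tested. *ier2a* rose by 1.79, the *myc* gene ENSDARG00000007241 by 1.84 and *klf6* by 1.41, all with no overlap between the genotypes. *klf2a*, a gene of the flow-responsive vascular factor KLF2, was lower by -1.72, and *dusp2*, a phosphatase gene that acts on MAP kinases, by -0.90. *dusp1*, a phosphatase gene of the same family, had a difference of 0.63 that was not called. Of 8 genes of the kinases JNK and p38 and of serum response factor, 2 were higher, 2 lower and 4 not called, near the 19.9% and 23.7% of all genes. *mapk9*, a JNK gene, was higher by 1.27, and both genes with the symbol *mapk8*, for another JNK, were lower, by -0.79 and -0.63. These are RNA levels and carry no measure of kinase activity.

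**Figure D5:**
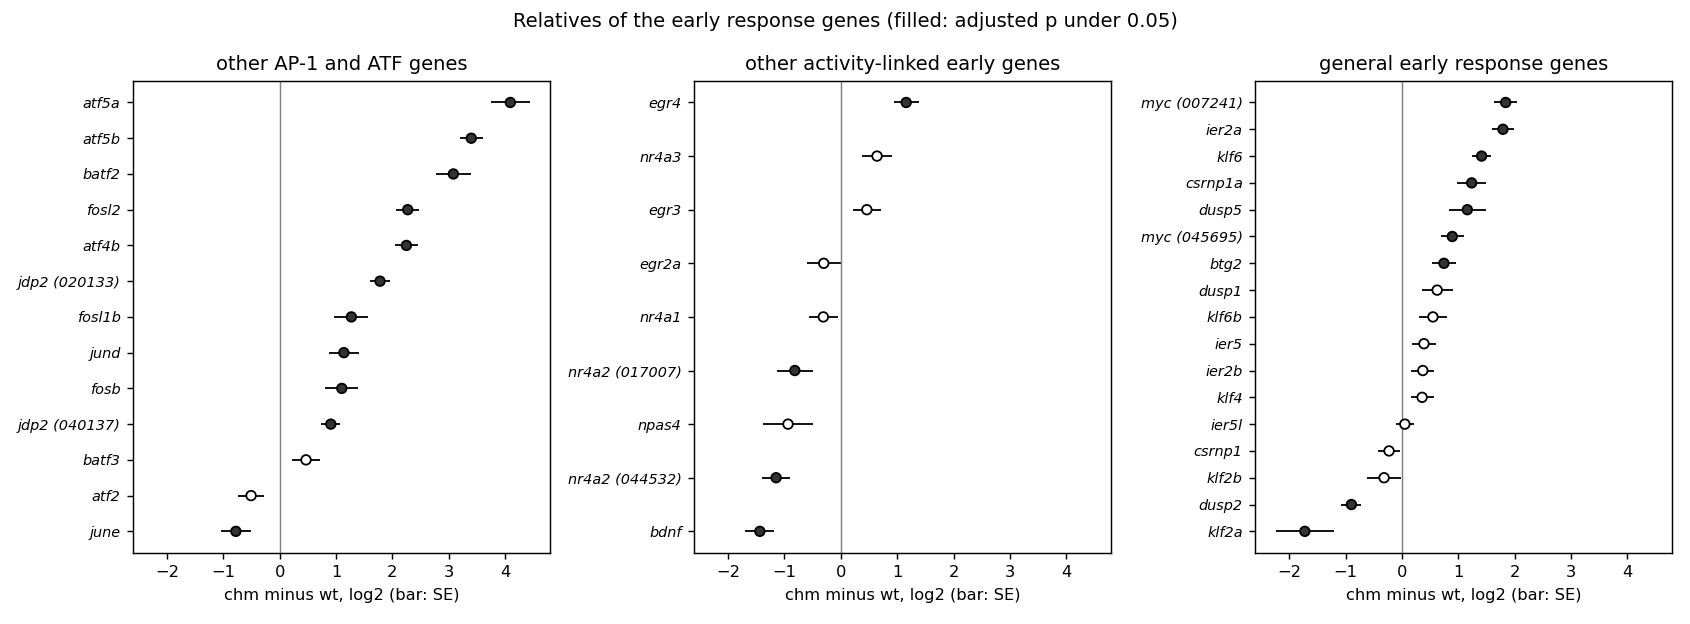
Difference between chmru848 (chm) and wt retinas on the deposited log2 scale for each tested gene of the lists of other AP-1 and ATF genes, other activity-linked early genes and general early response genes, with the SE as a bar, filled points for an adjusted p under 0.05 and the last digits of the identifier where a symbol is shared. Of the AP-1 and ATF genes 10 lie right of 0 with filled points and *june* left of it, while the activity-linked genes lie on both sides from *egr4* at 1.16 to *bdnf* at -1.44.

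The PERK branch of the unfolded protein response, in which the kinase PERK raises ATF4 and then CHOP, is known in mammals to induce *ATF3*. Of 7 genes of this branch tested, its kinase, factors, targets and feedback subunits, 7 were higher in chmru848 retinas, with a median difference of 2.0. The study's own tables of changed genes, made from these same retinas, supplied this list and the next 2. Neither the counts of genes called in these lists nor their direction is independent evidence. *ddit3*, the gene of CHOP, was higher by 2.59, with 7229 to 15792 normalized counts in chmru848 and 960 to 3140 in wt retinas. *eif2ak3*, the gene of PERK, was higher by 2.0, and *ppp1r15a*, which encodes a subunit of the phosphatase that ends the response, by 2.26.

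Of 13 genes known in mammals to be under AP-1 control or induced in the first response, 13 were higher, by 0.70 to 5.97. Their median was 2.21. All 13 were taken from the study's tables of changed genes, so this count is not independent evidence. *socs3a*, a feedback inhibitor of cytokine receptors, was higher by 5.97, with 9059 to 23849 normalized counts in chmru848 and 119 to 287 in wt retinas. *socs3b*, the other copy of this inhibitor gene, was higher by 3.62 and *cxcl8a*, a neutrophil attractant, by 3.11. Of 11 genes of cytokine receptors and their signalling, taken from the same tables, 11 were higher with a median of 2.12. *crlf1a*, a cytokine of the interleukin 6 family, was higher by 4.02, *lifrb*, a receptor gene, by 3.20, and *stat3*, which carries the signal of these receptors to the nucleus, by 2.48.

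Genes of immune cells were mixed. Of 8 macrophage and neutrophil genes, 3 were higher, *lyz*, *irf8* and *ptprc*, and 5 were not called, against 19.9% of all genes called higher. Their median difference was 0.11, and *lcp1* at -0.25, *coro1a* at -0.10, *csf1ra* at 0.06 and the *mpeg1* genes ENSDARG00000043093 at -0.30 and ENSDARG00000055290 at 0.16 were those not called. The summed level of the 8 was 621 to 1079 normalized counts in chmru848 and 137 to 320 in wt retinas. Most of the gap in this sum came from *irf8* and *lyz*. Mean normalized counts of *irf8* were 406 in chmru848 and 18.6 in wt retinas, and those of *lyz* 225 and 6.51. For the other genes of the list the genotypes overlapped, so the sum does not show a gain shared by the list. Of 5 further leukocyte genes, all taken from the study's tables of changed genes and so not independent evidence, 3 were higher, with sums of 237 to 661 in chmru848 and 71.6 to 131 in wt retinas. *csf1ra*, a defining gene of macrophages, was at 0 to 24.7 normalized counts in chmru848 and 0 to 13.1 in wt retinas. Of 4 genes tested as Müller glia genes, 1 was higher, 1 was lower and 2 were not called. Of all genes tested, 19.9% were called higher and 23.7% lower. Their sums were 20065 to 72502 normalized counts in chmru848 and 33230 to 65880 in wt retinas. The gene called higher was *gfap*, known to rise in stressed glia, by 2.64. The gene called lower was *rlbp1a*, by -2.75, a gene of the RPE, so its level is not a measure of Müller glia. The 2 not called were the *glul* genes, at -0.70 and 0.42. Of 3 further genes linked to glia and taken from the same tables, *apoeb*, *nes* and *clu*, 2 were higher and 1 was not called, with sums of 16824 to 75454 in chmru848 and 9269 to 40523 in wt retinas. Of 6 RPE and pigment genes 3 were lower and 3 not called, against 23.7% of all genes called lower. Their sums were 546 to 14856 normalized counts in chmru848 and 5322 to 13454 in wt retinas. Muscle, lens and skin genes, which a dissection can carry over, were not called in either direction. Muscle genes had sums of 69.7 to 4273 normalized counts in chmru848 and 88.1 to 4167 in wt retinas, and skin genes 718 to 17398 in chmru848 and 680.0 to 72141 in wt retinas. Lens genes had sums of 41.7 to 18320 normalized counts in chmru848 and 14.9 to 81110 in wt retinas. Which cells held the RNA of the early response genes was not tested.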

How the data were processed

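Bulk RNAseq of 7 chmru848 and 7 wt zebrafish retinas was analysed. According to the paper and the submitters' processing notes, the SMART-Seq v4 kit was used for libraries, and reads were trimmed with Trim Galore 0.6.7, aligned to GRCz11 with STAR 2.7.10a, counted per gene with RSEM 1.3.3 and normalised with DESeq2 1.38.3. The deposited values are log2 values after a variance-stabilizing transformation by the authors. Its settings and the gene filter are not given in the sources used here. A count of 0 appears as 4.35, the lowest value in the table, and the scale compresses differences of weakly expressed genes.

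The transformation was undone with this lowest value. The mean normalized count of 250 genes differed from the base mean listed by the authors by at most 1.63e-14 in relative terms. A gene was tested if 7 or more of the 14 retinas exceeded that lowest value. limma 3.58.1 (R 4.3.3) was run two-sided on the deposited values with its trend option, and p-values of the 19751 genes were adjusted together by the Benjamini-Hochberg method. The fit was tested on simulated data. Single genes, pairs of genes and correlations used exact permutation tests (scipy 1.17.1), over 3432 arrangements of retinas or 5040 pairings. Depth was estimated from the spacing of low values, taking 1 step as 1 read. Of low values, 51.4% to 64.3% per retina lay within 5% of a whole number of steps, so that depth and reads are approximate and no count test was run.

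Gene names came from a table of identifiers and symbols (18974 of 19859 genes named) and from the paper's tables. All 7 genes were named, and from each list at most 4 genes or those that a count of 5 or fewer singled out, with further genes chosen after their values were seen. Members and lists were chosen with earlier results of these data known. The lists of other AP-1 and ATF, activity-linked, general early and kinase genes, and the markers except the 5 further leukocyte genes and 3 glial genes, were added once the name table was at hand. Alternatives changed the filter, trend, scaling, logarithm, test, replicate block and retinas used. The settings without chmru848 retinas 1, 2 and 4, without wt retinas 6 and 7, with a covariate for genes at a count of 0, and with equal totals without the 10 most abundant genes were chosen after seeing the data. Values of 1 gene of the lists are not reported here.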

Additional observations from a re-analysis of the deposited data

Results flagged for a closer look

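The gap between the most extreme retina and its nearest neighbour, as a share of the range of the 7 retinas, was checked in 36 groups of values against Dixon's 95% limit for 7 samples, and passed it in 5, of which 4 were among the 14 groups of single genes. Chance gives about 1 in 20 such groups. In wt retinas, replicate 6 was the highest for *atf3*, at 9.11 on the deposited log2 scale against 7.99 in the next retina (share 0.830), and for *fosl1a*, at 7.47 against 6.01 (share 0.664). In chmru848 retinas, replicate 6 was the lowest for *junba*, at 11.4 against 12.3 (share 0.578), and for *junbb*, at 12.0 against 13.1 (share 0.632). The value of *atf3* minus *egr1* was highest in chmru848 replicate 3, at 3.49 against 2.66 (share 0.630).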

How the results depend on the processing

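Each of the 7 genes kept its call and direction under every alternative run, which numbered 30 for most genes and 31 for *junba* and *junbb*. Over these the difference was 5.99 to 6.46 for *atf3*, 4.19 to 5.59 for *fosl1a*, 5.52 to 5.88 for *jun*, 2.02 to 2.42 for *fosab* and 0.05 to 0.55 for *egr1*, whose adjusted p was 0.133 to 0.937. It was 1.37 to 2.79 for *junba* and 2.79 to 6.10 for *junbb*, where 2.79 is the sum of both copies. Genes called higher numbered 3132 to 4521, against 3940, and lower 3371 to 5401, against 4687. The replicate numbers did not pair the retinas (correlation of deviations from -0.12 to 0.10, 1 of 7 pairs over 0.1, none of 14 retinas closest to its own number). With a replicate block, 4036 genes were higher and 4791 lower. Pairs of genes were then tested by exact sign flips of the differences between retinas of the same number, and 9 of 11 passed. The others were *junba* minus *fosab* (-0.82, adjusted exact sign-flip p = 0.0516) and *junba* minus *egr1* (1.17, adjusted exact sign-flip p = 0.0781). Leaving out each retina in turn gave -0.92 to -0.68 for *junba* minus *fosab* and 0.93 to 1.44 for *junba* minus *egr1*. The cause was not tested. *junbb* in wt replicates 6 and 7 rests on few reads, an estimated 7.99 and 3.98. The libraries of these retinas held an estimated 19.4 and 26.3 M reads on genes, within the range of the wt retinas. *fosl1a* rests on an estimated 10.6 to 29.1 reads in the wt retinas other than replicate 6, and on 167 in replicate 6.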
